A study of Mus musculus with 12 samples.

Results

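The genes described here are 10 transcripts of the antioxidant response that the transcription factor NRF2 controls: Txnrd1, Txn1, Prdx1 and Srxn1 of the thioredoxin arm, Slc7a11, Gclc, Gclm and Gsr of the glutathione arm, and the haem and quinone enzymes Hmox1 and Nqo1. They were chosen by symbol, with earlier results of these data known. The authors' deposited comparison table held 9 of the 10 among its 13703 genes. Nqo1 was not in that table, and its values come from the deposited counts of 49315 genes, which held all 10. Pancreatic islets were isolated from female NOD/ShiLtJ mice, in which lymphocytes infiltrate the islets and autoimmune diabetes follows. All mice had normal blood glucose and were 9 weeks old when weekly injections began, and both groups were dosed for 4 weeks. The 6 control libraries came from mice given IgG, and the 6 treated libraries from mice given anti-CD3, an antibody to the signalling chains of the T cell receptor, at 2.5 mg/kg. Islets were taken 2 to 3 days after the last injection and were not treated after isolation. The labels do not say whether a library is 1 mouse or a pool, so every p-value measures the spread between these samples, which may be partly technical.

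NRF2, encoded by Nfe2l2, is held in the cytoplasm and degraded through KEAP1 until oxidants or electrophiles modify KEAP1. It then enters the nucleus, pairs with a small MAF protein and binds antioxidant response elements near its target genes. The thioredoxin arm passes electrons from NADPH through thioredoxin reductase to thioredoxin and on to peroxiredoxins, while the glutathione arm imports cystine, makes glutathione and keeps it reduced. Pancreatic beta cells are known for low levels of several enzymes that remove hydrogen peroxide, and for relying on the thioredoxin and peroxiredoxin route.

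The core of the antioxidant response element, TGACNNNGC on either strand, was searched in RefSeq promoter windows (GRCm38.p6) that run from 250 bases before to 50 bases after each annotated start. These windows exist for 7 of the 10 genes, not for Hmox1, Gclc or Gsr. The core was present in 4 of the 9 windows of these 7 genes, 1 each for Srxn1, Gclm, Prdx1 and Txnrd1, against 12.4% of 32851 windows of the same length in the table. No core was found in the windows of Slc7a11, Txn1 and Nqo1, which says only that these letters are not there. The 4 stretches are shown because they hold the sequence through which NRF2 is known to act. They are written along the gene's own strand, in lower case with the core in capitals. In all 4 the core lies on the opposite strand, so the capitals are its reverse complement.
Gclm, chr3:122245307-122245556 (plus strand), the 250 bases before the start: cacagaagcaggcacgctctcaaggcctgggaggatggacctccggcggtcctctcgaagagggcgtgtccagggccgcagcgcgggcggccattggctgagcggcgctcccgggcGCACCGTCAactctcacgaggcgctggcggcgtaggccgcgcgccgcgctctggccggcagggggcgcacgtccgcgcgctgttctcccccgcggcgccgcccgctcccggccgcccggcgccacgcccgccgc
Prdx1, chr4:116685349-116685543 (plus strand): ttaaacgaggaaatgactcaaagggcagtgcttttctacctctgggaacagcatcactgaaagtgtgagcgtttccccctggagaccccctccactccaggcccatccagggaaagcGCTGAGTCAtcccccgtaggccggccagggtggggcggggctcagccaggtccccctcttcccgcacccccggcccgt
Txnrd1, chr10:82859009-82859178 (plus strand), before the second of 3 annotated starts: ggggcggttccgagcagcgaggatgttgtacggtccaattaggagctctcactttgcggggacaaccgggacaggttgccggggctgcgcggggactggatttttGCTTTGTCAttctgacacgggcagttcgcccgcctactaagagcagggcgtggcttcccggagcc
Srxn1, chr2:152105544-152105568 (plus strand), with the core 28 bases after the RefSeq start: agtgggcaGCTAGGTCAgagtgaga
The core begins 134 bases before the start in Gclm, 133 bases before it in Prdx1 and 92 bases before it in Txnrd1. The core in Prdx1 overlaps the AP-1 motif TGANTCA, which the printed stretch also holds near its beginning. A match is a description of the letters and not a measured binding site. No difference in response between genes with and without the core was tested.

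Exocrine transcripts dominated the libraries although they are labelled as islets. The 30 acinar marker genes took 32.4% to 71.8% of the counts in IgG and 68.6% to 72.5% in anti-CD3, with 55.4% in IgG 5 and 32.4% in IgG 6 and 64.8% or more in every other library. Beta cell markers, summed over 10 genes, were present in every library, at 0.696% to 2.31% of the counts. As TMM-scaled CPM (counts per 1e6 counts, with each library's total multiplied by its TMM factor) they were at 8732 to 18069. Libraries held 10994337 to 19284740 counts. Of the genes, 13115 were tested, and 10 passed the main test (edgeR's quasi-likelihood test, adjusted p under 0.05), all of them higher in anti-CD3. Levels below are the authors' normalised counts, which are counts divided by 1 size factor per library. A fold change is anti-CD3 over IgG on the log2 scale.

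Of the 9 tested genes 5, Txnrd1, Srxn1, Slc7a11, Gclm and Hmox1, had lower values in anti-CD3 islets, by 1.40 to 1.73 times, while Txn1, Prdx1, Gclc and Gsr lay within 0.11 of 0 on the log2 scale. Over all genes 0 of the 9 passed edgeR's adjusted test, where 0.0762% of all tested genes passed. At an unadjusted edgeR p under 0.05 there were 5 of 9, all lower, where 18.4% of tested genes had such a p and 8.68% had it and were lower. By the authors' deposited table, 2 of the 9 passed at an adjusted p under 0.05, Txnrd1 and Srxn1, both lower, where 4.55% of the genes with an adjusted p passed and 1.31% passed as lower. DESeq2, the tool the submitters name, was run again on the deposited counts and called the same 2 genes (3.78% of genes called, 1.13% as lower). This is not separate support, as the tool and the counts are the same. The median of the 9 fold changes was -0.48, beside -0.05 over all genes tested. Of the 9 genes 7 had a fold change below 0, as had 55.2% of all genes tested. The genes were chosen with earlier results of these data known, so these counts are a description and not a test.

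**Figure D1:**
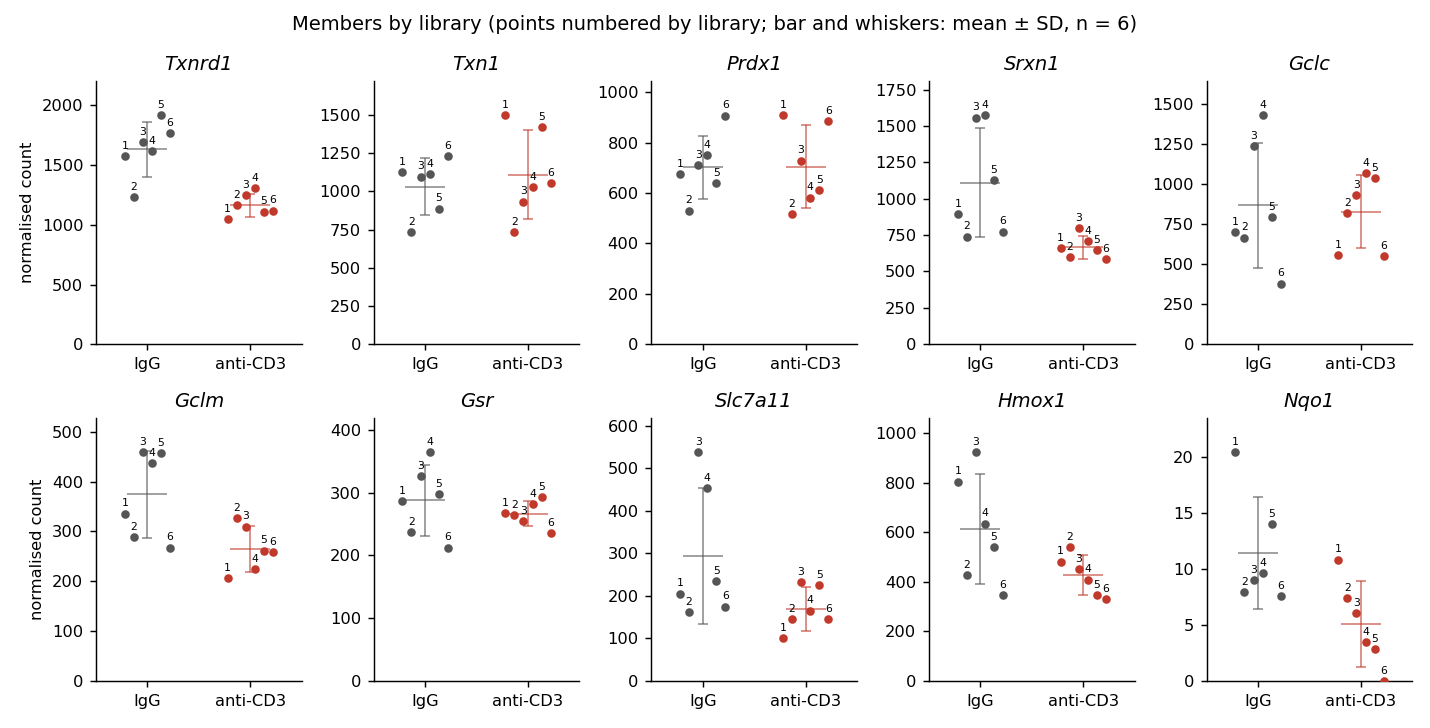
Normalised counts of each of the 10 genes (vertical axes start at 0) in the 6 IgG libraries (grey) and the 6 anti-CD3 libraries (red), with library numbers beside the points, and the mean and SD of each group. Srxn1 and Txnrd1 show nearly separate groups, Slc7a11 and Srxn1 are highest in IgG 3 and IgG 4, and Txn1, Prdx1 and Gclc overlap throughout. Values of Nqo1 are counts multiplied by the same factor per library.

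In the thioredoxin arm, Txnrd1, the cytosolic selenoprotein that reduces thioredoxin, had the most even difference. Its normalised count ran from 1234 to 1917 in IgG with a median of 1655, and from 1045 to 1306 in anti-CD3 with a median of 1141. The groups overlapped through 1 IgG library: IgG 2, the lowest at 1234, lay under anti-CD3 3 and anti-CD3 4, and the other 5 IgG libraries lay above every anti-CD3 library. The group means were 1634 ± 230 and 1165 ± 96.4 (SD, n = 6 each). The fold change of Txnrd1 was -0.48 ± 0.13 (SE), or 1.40-fold lower, with an edgeR adjusted p = 0.0974. The authors' deposited table gives Txnrd1 a log2 fold change of -0.49 with an adjusted p = 0.00914, and DESeq2 on the counts gave -0.49 ± 0.13 (SE) with an adjusted p = 0.0117.

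Srxn1 encodes sulfiredoxin, which repairs overoxidised peroxiredoxins. Its normalised count ran from 740 to 1573 in IgG, with a median of 1011, and from 585 to 796 in anti-CD3, with a median of 653. Of the 6 anti-CD3 libraries 5 lay below every IgG library, and anti-CD3 3, at 796, lay above IgG 2 and IgG 6. IgG 3 and IgG 4 were the highest, at 1557 and 1573. Srxn1 was at -0.73 ± 0.20 (SE), or 1.66-fold lower in anti-CD3, with an edgeR adjusted p = 0.101. The authors' deposited table gives Srxn1 a log2 fold change of -0.74 with an adjusted p = 0.0221. Without IgG 3 the edgeR value was -0.61, and without IgG 4 it was also -0.61.

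Txn1, the cytosolic thioredoxin that Txnrd1 reduces, had overlapping groups. Its normalised count ran from 731 to 1233 in IgG, against 733 to 1498 in anti-CD3, and 3 of the 6 anti-CD3 libraries exceeded the IgG mean of 1032. The fold change of Txn1 was 0.11 ± 0.18 (SE), with a 95% interval from -0.28 to 0.50 (edgeR adjusted p = 0.775). Prdx1, the abundant cytosolic peroxiredoxin that sulfiredoxin repairs, ran from 530 to 907 in IgG, against 515 to 908 in anti-CD3. Its fold change was 0.01 ± 0.17 (SE), with a 95% interval from -0.35 to 0.37 (edgeR adjusted p = 0.986). The difference between Txn1 and Txnrd1, or between Prdx1 and Srxn1, was not tested. With an offset for transcript length Txn1 was at -0.23 ± 0.14 and Prdx1 at -0.08 ± 0.16 (SE), so the sign of both depends on that setting.

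In the glutathione arm, Slc7a11 had the lowest fold change of the 9 genes. It encodes xCT, the transport subunit of the cystine and glutamate exchanger that brings in cystine for glutathione. Its normalised count ran from 162 to 538 in IgG, with a median of 219.9, and from 101 to 233 in anti-CD3, with a median of 155. IgG 3 and IgG 4 stood high, at 538 and 453, and the other 4 IgG libraries, at 162 to 235, lay within or just above the range of anti-CD3. Slc7a11 was at -0.79 ± 0.32 (SE), or 1.73-fold lower, with an edgeR adjusted p = 0.218. It was -0.52 without IgG 3, the smallest difference when 1 library was left out, and -0.91 without IgG 2.

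Gclm and Gclc encode the modifier and the catalytic subunit of glutamate-cysteine ligase, the rate-limiting enzyme of glutathione synthesis. Gclm ran from 268 to 459 in IgG, with a median of 387, and from 206 to 327 in anti-CD3, with a median of 260.0. Of the 6 anti-CD3 libraries 4 lay below every IgG library, and the fold change of Gclm was -0.49 ± 0.18 (SE), or 1.41-fold lower (edgeR adjusted p = 0.173). Gclc ran from 378 to 1427 in IgG, against 551 to 1065 in anti-CD3, so that the IgG range enclosed that of anti-CD3. IgG 4 and IgG 3 were the highest for Gclc, at 1427 and 1234, and IgG 6 the lowest of all 12 libraries. Its fold change was -0.06 ± 0.29 (SE), with a 95% interval from -0.68 to 0.56 (edgeR adjusted p = 0.926). This interval holds the value of Gclm, and the difference between the 2 subunits was not tested. With the acinar covariate Gclc was at -0.44 ± 0.26, and without the IgG 5 and IgG 6 libraries at -0.28 ± 0.25 (SE).

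Gsr encodes glutathione reductase, which regenerates reduced glutathione from its oxidised form. It ran from 212 to 364 in IgG, against 236 to 293 in anti-CD3, with the narrowest spread of the 10 genes in anti-CD3, a coefficient of variation of 7.48%. Gsr had a fold change of -0.11 ± 0.14 (SE), with a 95% interval from -0.41 to 0.19 (edgeR adjusted p = 0.705). The anti-CD3 libraries lay inside the IgG range, and 5 of 6 lay below the IgG mean of 287.

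Hmox1 encodes haem oxygenase 1, which breaks down haem and is abundant in macrophages that take up red cells. Its normalised count ran from 347 to 924 in IgG, with a median of 589, and from 330.1 to 539 in anti-CD3, with a median of 431. All 6 anti-CD3 libraries lay below the IgG mean of 613, but only anti-CD3 5 and anti-CD3 6 lay below the lowest IgG library, which was IgG 6. The fold change of Hmox1 was -0.52 ± 0.23 (SE), or 1.43-fold lower, with an edgeR adjusted p = 0.244. All 10 tested macrophage markers also had fold changes below 0, as had 55.2% of all genes tested. Their median was -0.62, and 0 of them passed edgeR. Their summed level was 94.0 to 751 scaled CPM in IgG, highest in IgG 6, and 61.4 to 277 in anti-CD3. IgG 6, with the highest macrophage level, had the lowest normalised Hmox1 of the IgG libraries. That rank depends on the scaling, as IgG 6 had 873 Hmox1 counts and IgG 2 had 484. Without IgG 5 and IgG 6 the macrophage median was 0.02 (0.30 with the acinar covariate and all libraries) and Hmox1 was at -0.71 ± 0.20 (SE). Whether macrophages have a part in the Hmox1 difference was not tested.

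Nqo1 encodes a quinone reductase and is a standard reporter of NRF2 activity, but it was barely detected here. It had 89 counts over the 6 IgG libraries, between 8 and 27 per library, and 26 over the 6 anti-CD3 libraries, between 0 and 9. Its mean of 9.58 counts lay just under the 10 that every gene of the deposited table exceeded, and it was left out of the main test as too low. As normalised counts this was 7.54 to 20.4 in IgG and 0 to 10.8 in anti-CD3, with anti-CD3 1 inside the IgG range and the other 5 anti-CD3 libraries below it. The library with 0 counts, anti-CD3 6, allows up to 3 counts, or 4.04 as a normalised count, for counting error only. Without the filter edgeR gave Nqo1 a fold change of -1.16 ± 0.58 (SE; adjusted p = 0.381), and DESeq2 gave it -1.19 ± 0.55 (SE) with no adjusted p.

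**Figure D2:**
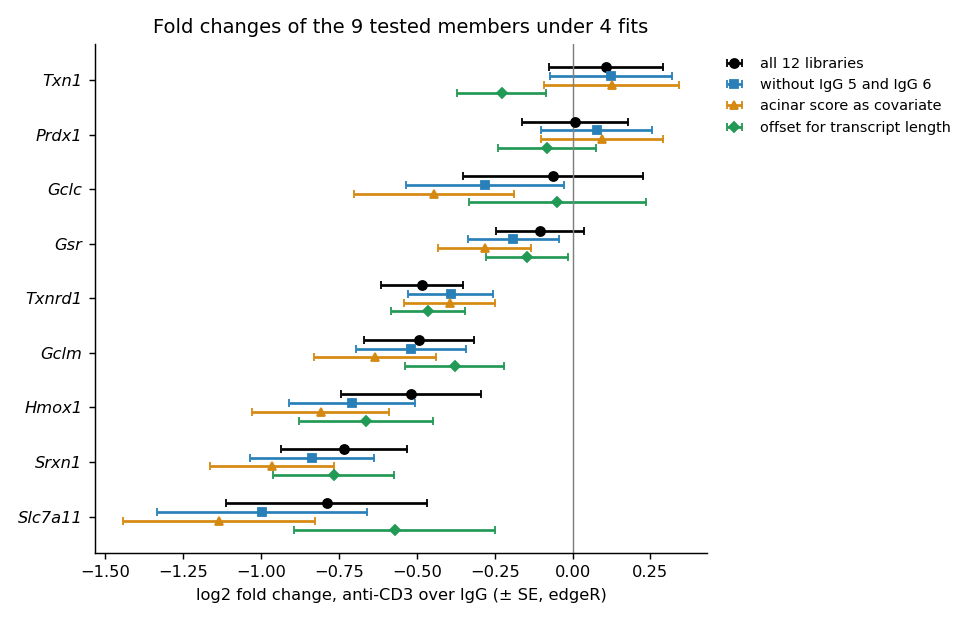
Log2 fold changes of the 9 tested genes, anti-CD3 over IgG (horizontal axis, ± SE, edgeR), from all 12 libraries, without IgG 5 and IgG 6, with an acinar score covariate and with an offset for transcript length. Slc7a11, Srxn1, Hmox1, Gclm and Txnrd1 lie below 0 in each of the 4 fits, and Txn1 and Prdx1 change side with the length offset.

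Other settings moved the size of the differences more than their direction. Txnrd1, Srxn1, Slc7a11, Gclm and Hmox1 had fold changes below 0 in each of 25 alternatives, from -0.55 to -0.39 for Txnrd1, -0.97 to -0.61 for Srxn1, -1.14 to -0.52 for Slc7a11, -0.64 to -0.38 for Gclm and -0.81 to -0.36 for Hmox1. Gsr was also below 0 in each, from -0.28 to -0.03, while Gclc was below 0 in 20 of 25 and Prdx1 in 7 of 25. Across these alternatives the adjusted p ran from 0.0117 to 0.43 for Txnrd1 and from 0.0253 to 0.306 for Srxn1, with DESeq2 giving the lowest of each. With the acinar score as a covariate, Srxn1 was at -0.97 ± 0.20, Slc7a11 at -1.14 ± 0.31 and Txnrd1 at -0.39 ± 0.15 (SE). In that fit 0 of the 9 passed (edgeR adjusted p from 0.306), and so did 0 of all 13115 genes tested.

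Several marker lists of other cell types lay mostly on 1 side of 0, but 0 of their markers passed edgeR. DESeq2 called 1 acinar and 3 stromal markers. At an unadjusted edgeR p under 0.05, 11 of 30 acinar markers were higher. At the same p, 5 of 10 stromal, 3 of 10 T cell, 0 of 6 B cell and 1 of 10 beta cell markers were lower. Of all tested genes, 9.68% were higher and 8.68% lower at such a p. Over all tested genes 44.8% were above 0 and 55.2% below. Beta cell markers (3 above and 7 below, median -0.11) and other endocrine markers (4 and 4, median -0.11) were more mixed. Of the 30 acinar markers 29 had a fold change above 0, with a list median of 0.68 (0.33 without IgG 5 and IgG 6), while all 10 stromal markers (median -1.01), all 10 T cell markers (median -1.21) and all 6 B cell markers (median -1.34) were below 0. Without IgG 5 and IgG 6 the medians were -0.71 for the stromal, -0.31 for the T cell and 0.47 for the B cell markers. The acinar covariate gave -0.37, 0.17 and 1.00 in the same order, so the sign of the T cell and B cell medians depends on these settings. The stromal sum was 97.4 to 359 scaled CPM in IgG and 48.7 to 173 in anti-CD3, the T cell sum 5.91 to 154 and 3.35 to 47.4, and the B cell sum 1.69 to 125 and 1.01 to 30.6, each highest in IgG 6. In each of these lists every marker had counts in both groups. The part of these cells in the fold changes of the 9 genes was not tested beyond the fits above, and in whole islets fewer cells of a type and less RNA per cell cannot be told apart.

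Within the IgG group some libraries were high or low for most of the antioxidant genes. In IgG 3 all 9 tested genes lay above their IgG mean, on average by 0.41 on the log2 scale, and in IgG 4 8 of 9 did, by 0.35. In IgG 2 0 of 9 did, with an average of -0.41, and in IgG 6 3 of 9, with an average of -0.34. Over all tested genes the same averages were between -0.07 and 0.09 in these 4 libraries. TMM scaling itself holds such averages near 0, and the spread of other sets of 9 genes was not measured. IgG 3 and IgG 4 also had the highest acinar shares of the IgG group, 71.8% and 71.2%, and the lowest T cell sums, 5.91 and 19.6 scaled CPM. The other libraries did not follow that order: IgG 2, with the lowest average, had an acinar share of 67.8% and a T cell sum of 40.4, and IgG 5, with 55.4% and 41.2, averaged 0.02. Not every gene shared this pattern. Txnrd1 had its highest values in IgG 5 and IgG 6 (1917 and 1770), and Prdx1 and Txn1 were highest in IgG 6, by 0.37 and 0.26 over their IgG means, where IgG 3 was at 0.04 and 0.12. Whether the genes vary together was not tested. In anti-CD3 the averages stayed between -0.15 and 0.17. The coefficient of variation was larger in IgG than in anti-CD3 for Srxn1 (33.9% and 11.7%), Slc7a11 (54.3% and 30.1%), Hmox1 (36.1% and 19.0%) and Gclc (45.1% and 27.6%), and smaller in IgG for Txn1 and Prdx1.

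**Figure D3:**
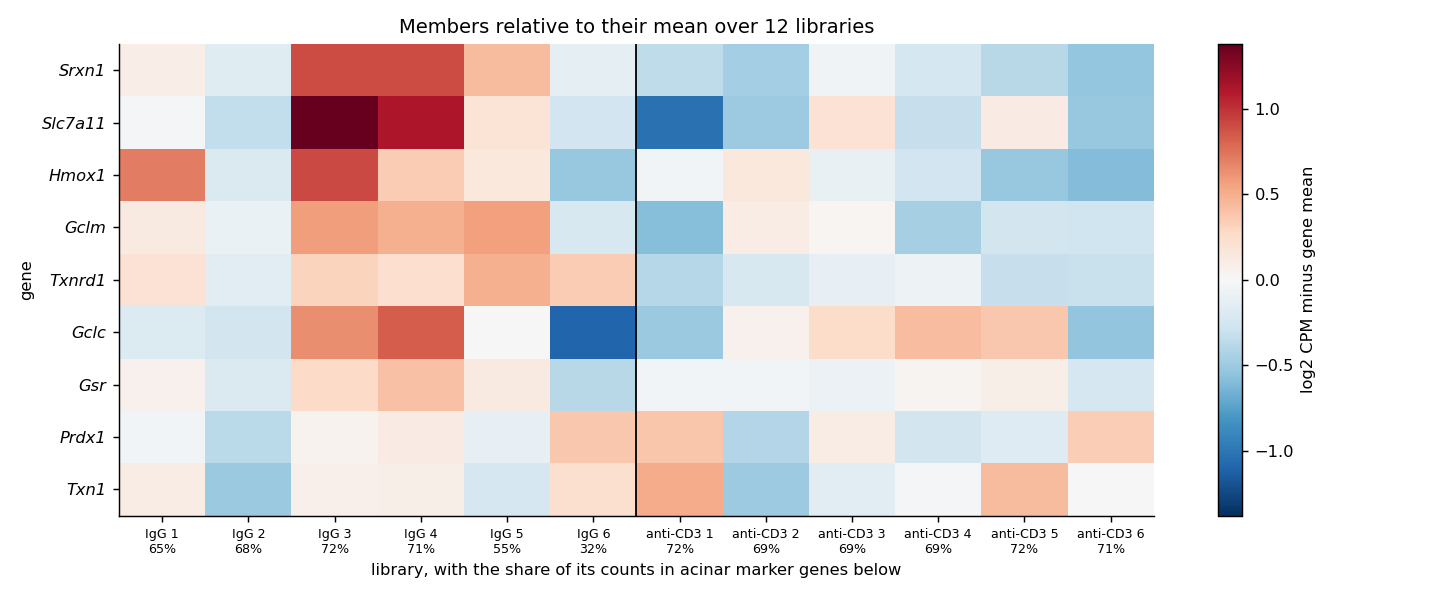
Log2 CPM of the 9 tested genes minus each gene's mean over the 12 libraries (colour), for the IgG libraries left of the line and the anti-CD3 libraries right of it, with each library's share of counts in acinar markers. IgG 3 and IgG 4 are high for Srxn1, Slc7a11, Gclm and Gclc, and IgG 2 is below the mean in every row.

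Per kilobase of annotated exon, the 10 genes spanned a wide range of levels. In IgG islets Txn1 was highest, at 982 ± 176 normalised counts per kilobase (SD, n = 6). Srxn1 (394 ± 134) and Hmox1 (350.3 ± 126) followed and did not differ beyond their spread. Txnrd1 (231 ± 32.5), Prdx1 (231 ± 41.3) and Gclc (229.9 ± 104) were level with each other. Gsr was at 104 ± 20.3, Gclm at 59.5 ± 13.9, Slc7a11 at 21.2 ± 11.5 and Nqo1 at 7.36 ± 3.21. In anti-CD3 islets Txn1 was again highest, at 1057 ± 279, and Hmox1 (244 ± 46.2), Srxn1 (236 ± 27.6), Prdx1 (232 ± 53.7) and Gclc (219 ± 60.4) lay within their spread. Txnrd1 had a lower mean, 164 ± 13.6, which was still within the SD of Gclc. Exon lengths are those of all annotated transcripts merged, from 1051 bases for Txn1 to 13922 for Slc7a11, so levels of genes with rarely used exons are understated.

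Of 10 regulators of the pathway, 0 passed edgeR over all genes in either direction, 5 were higher and 5 lower, and the median was 0.005 (1 higher and 0 lower at an unadjusted p under 0.05, with DESeq2 calling 0). Nfe2l2, the gene of NRF2 itself, had 277 to 453 normalised counts in IgG and 337 to 526 in anti-CD3, a fold change of 0.31 ± 0.15 (SE; edgeR adjusted p = 0.286). Keap1, its repressor, was at -0.04 ± 0.13, and Bach1, which competes with NRF2 at the same elements, at -0.04 ± 0.25 (SE). Rbx1, the ring subunit of the ligase that ubiquitinates NRF2, was at 0.41 ± 0.14 (SE; edgeR adjusted p = 0.158). NRF2 is controlled largely at the protein level, which RNA does not measure.

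Other genes of the same arms had mostly higher values in anti-CD3. Over all tested genes 44.8% had a fold change above 0, and 9.68% were higher at an unadjusted p under 0.05. Of 16 further thioredoxin system genes 15 were higher (median 0.28), and 0 passed edgeR in either direction (3 higher and 1 lower at an unadjusted p under 0.05, and 1, Prdx4, with DESeq2). Prdx4, the peroxiredoxin of the endoplasmic reticulum, ran from 439.8 to 1927 in IgG, against 1745 to 3043 in anti-CD3, a fold change of 1.02 ± 0.29 (SE; edgeR adjusted p = 0.112). Msra, a methionine sulfoxide reductase, was at 0.60 ± 0.18 (SE; edgeR adjusted p = 0.125). With the acinar score as a covariate the median of this list was 0.14. The exception below 0 was Sesn3, a sestrin, at -0.66 (edgeR), named after its value was seen.

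Of 24 tested glutathione system genes 18 were higher and 6 lower (median 0.36). None passed edgeR in either direction (0 of 24; 5 higher and 0 lower at an unadjusted p under 0.05, and 3, Gpx4, Gsta3 and Glrx3, with DESeq2). The other 6 genes of the list had too few counts. Gsta3, a glutathione transferase, had 13.3 to 23.6 normalised counts in IgG and 32.0 to 54.0 in anti-CD3, with no overlap between the groups, as for 1.85% of all tested genes, and a fold change of 1.12 ± 0.25 (SE; edgeR adjusted p = 0.0659). Gpx4, the peroxidase that reduces lipid hydroperoxides, was at 0.78 ± 0.17 (SE; edgeR adjusted p = 0.0659). Leaving out IgG 5 and IgG 6 gave this list a median of 0.15, and the acinar covariate gave 0.05.

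Among 7 enzymes that supply NADPH, 5 were lower and 2 higher (median -0.28, and -0.12 with the acinar covariate), with 0 past edgeR (1 higher and 2 lower at an unadjusted p under 0.05, with DESeq2 calling 0). Me1, cytosolic malic enzyme and a known NRF2 target, had 113 to 217 normalised counts in IgG and 78.9 to 135 in anti-CD3, a fold change of -0.66 ± 0.20 (SE; edgeR adjusted p = 0.122). Idh2, the mitochondrial isocitrate dehydrogenase, was at 0.54 ± 0.19 (SE; edgeR adjusted p = 0.177). Of 12 tested detoxification enzymes and exporters 6 were higher and 6 lower (median 0.01), with 0 past edgeR (0 higher and 2 lower at an unadjusted p under 0.05, with DESeq2 calling 0). The lowest p values there belonged to the exporter Abcc1, at -0.44 ± 0.15, and the aldo-keto reductase Akr1b8, at -0.63 ± 0.22 (SE; edgeR adjusted p = 0.159 and 0.164).

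Superoxide and peroxide enzymes and iron genes also gave 0 of 4 and 0 of 8 past edgeR, with medians of -0.05 and 0.08, and 0 in each with DESeq2. At an unadjusted p under 0.05 there was 1 gene in the first list, lower, and 0 in the second. Sod3, the extracellular superoxide dismutase, was at -1.47 ± 0.56 and Sod1, the cytosolic one, at 0.37 ± 0.18 (SE; edgeR adjusted p = 0.197 and 0.279). Of the iron list, Tfrc, the transferrin receptor, was at 0.26 ± 0.13 and Blvra, biliverdin reductase, which acts on the product of haem oxygenase, at 0.33 ± 0.26 (SE; edgeR adjusted p = 0.307 and 0.5). Slc7a11 is also a known target of the stress factor ATF4, and the 12 genes of an ATF4 list were all above 0, with a median of 0.41 (-0.03 with the acinar covariate) and 0 past edgeR (4 at an unadjusted p under 0.05, all higher, and 2, Atf3 and Ddit3, with DESeq2). In the ATF4 list the 2 genes with the smallest p were Atf3, at 1.59 ± 0.32, and Ddit3, at 1.51 ± 0.27 (SE; edgeR adjusted p = 0.0659 and 0.0646). Slc7a11 was at -0.79, and whether ATF4 has a part in its difference was not tested.

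**Figure D4:**
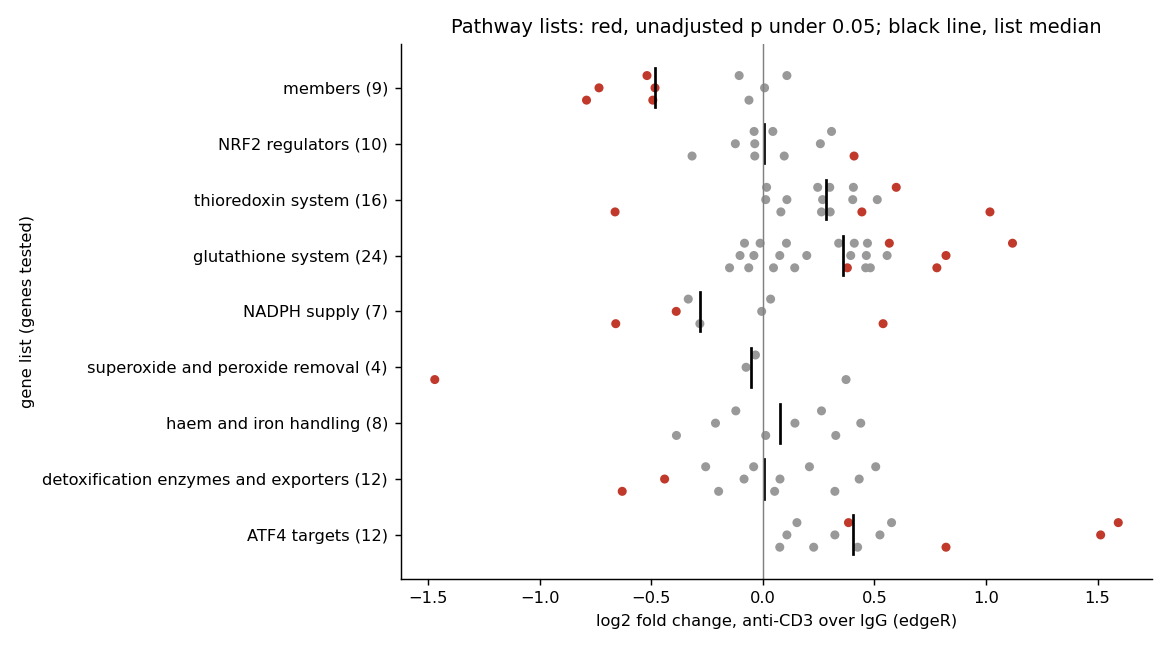
Log2 fold change, anti-CD3 over IgG (horizontal axis, edgeR), of each tested gene in the 10-gene antioxidant set (9 tested) and in 8 further lists, in red at an unadjusted p under 0.05 and with a black line at each median. The 9 antioxidant genes have a median of -0.48, and the thioredoxin and glutathione lists have medians of 0.28 and 0.36. Chac1, Slc3a2 and Sesn2 of the ATF4 list are also drawn in the glutathione or thioredoxin list.

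On GRCm38 the 10 genes are annotated as protein-coding, and each value sums reads over the whole gene. Txnrd1 (ENSMUSG00000020250) spans 82833951 to 82897712 on chromosome 10, Txn1 (ENSMUSG00000028367) 57943373 to 57956411 and Prdx1 (ENSMUSG00000028691) 116685544 to 116700822 on chromosome 4, and Srxn1 (ENSMUSG00000032802) 152105516 to 152111376 on chromosome 2. On chromosome 3, Slc7a11 (ENSMUSG00000027737) spans 49892526 to 50443614 and Gclm (ENSMUSG00000028124) 122245557 to 122270732. Gclc (ENSMUSG00000032350) lies on chromosome 9 from 77754535 to 77794485. On chromosome 8, Gsr (ENSMUSG00000031584) spans 33652523 to 33698163, Hmox1 (ENSMUSG00000005413) 75093621 to 75100589 and Nqo1 (ENSMUSG00000003849) 107388225 to 107403206. The counts do not separate the transcripts of Txnrd1, so the share that starts downstream of the printed sequence is not known.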

How the data were processed

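Polyadenylated RNA of islets was sequenced as read pairs, per the labels. Trimmomatic 0.36, STAR 2.5.2b, featureCounts of Subread 1.5.2 and DESeq2 with GRCm38 (mm10) are named in the submitters' processing notes, without options. Not given in the sources used here: annotation release, strand setting and treatment of multi-mapping reads. The authors deposited raw counts per Ensembl gene, and a comparison table with a normalised signal per library, log2 fold changes (anti-CD3 over IgG) and p-values. That signal equals counts over a size factor, 1 for each library: 100% of its values were whole reads within 0.01. Every one of its 13703 genes had a mean above 10 counts. Columns were matched to samples by group and number, 1 name having an extra prefix, with 0 per-sample columns unused.

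Counts were tested in R 4.3.3 with edgeR 4.0.16 (quasi-likelihood F test, robust, TMM factors, filterByExpr with minimum count 10 and total 15, Benjamini-Hochberg adjustment over 13115 genes, threshold 0.05, two-sided) on 6 IgG and 6 anti-CD3 libraries. The SE is the fold change divided by the root of F. Log2 CPM used a prior count of 2. The acinar score is the mean log2 CPM of 30 acinar markers. Alternatives were DESeq2 1.42.0, limma-voom 3.58.1 with quality weights, RLE, upper-quartile and acinar-free TMM factors, 2 other filters, the acinar covariate, a block for replicate number, non-robust estimation, a length offset (lowess, span 0.3, longest transcript), and omission of libraries. The edgeR test on reads recovered from the normalised signal was added after seeing the data and called 10 genes. On simulated data the procedure recovered 38.8% of planted 2-fold changes and 96.7% of planted 4-fold changes, and it called 7 unchanged genes. Differences under 2-fold were not simulated, so a gene that did not pass is not shown to be unchanged. Symbols came from GENCODE M21 for 48970 genes and from the deposited table for 17.

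The genes and lists were chosen with earlier results of these data known. Named were the 10 genes, the 2 with the smallest p of each further list, Nfe2l2, Keap1 and Bach1, and the 5 genes with the most similar profile. Libraries held 10994337 to 19284740 counts, and the errors given for tested genes are the spread between libraries.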

Additional observations from a re-analysis of the deposited data

How the results depend on the processing

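The number of genes past the threshold, 10 in the main test, was 455 with DESeq2, 44 with limma-voom, 167 without the filter on low counts, 6 with upper-quartile factors, 5 without robust estimation, 4 with the length offset, 0 with the acinar covariate, and 1 when IgG 5 and IgG 6 were left out. It was between 0 and 203 when 1 library was left out, the highest without anti-CD3 2. Of the antioxidant genes 0 passed in the main test, 2 with DESeq2 (Txnrd1 and Srxn1), and 0 in every other alternative. The number with a fold change above 0, 2 in the main test, was 1 with RLE factors, 0 with the length offset, and 1 to 3 when 1 library was left out. Prdx1 was at -0.00018 with RLE factors and at -0.082 with the length offset, where Txn1 was at -0.227. With 1 library left out Gclc lay between -0.217 and 0.139 and Prdx1 between -0.073 and 0.095. The cause of these changes was not tested.

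With the replicate number as a block 0 genes passed, Gclc was at 0.014 and Prdx1 at -0.004. The numbers were not shown to pair libraries: over all tested genes, the deviations of same-numbered libraries correlated above 0.1 in 3 of 6 pairs (-0.29 to 0.55), and 3 of 6 IgG libraries correlated best with their own number. Depth limits Nqo1, with 0 to 27 counts per library.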

Other observations

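Ratios of counts within a library do not depend on how libraries are scaled. The 3 ratios were computed between partners in one reaction, chosen after the values of the genes were seen and given with no test. Txnrd1 over Txn1, reductase over substrate, had a median of 1.497 in IgG (1.40 to 2.16) and 1.17 in anti-CD3 (0.698 to 1.59), with 5 of 6 anti-CD3 libraries below every IgG library. Srxn1 over Prdx1, repair enzyme over substrate, had a median of 1.58 in IgG (0.853 to 2.19) and 1.07 in anti-CD3 (0.662 to 1.22), with 2 of 6 below every IgG library. Gclc over Gclm, catalytic over modifier subunit, had a median of 2.19 in IgG (1.41 to 3.26) and 2.86 in anti-CD3 (2.13 to 4.73), with 2 of 6 above every IgG library. Each ratio is of counts and is not corrected for gene length. The main fold changes were 0.11 for Txn1 and -0.48 for Txnrd1, and with the length offset they were -0.23 and -0.46. The size of the group difference in Txnrd1 over Txn1 therefore depends on that setting.

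The mean profile of the 9 tested genes over the 12 libraries was nearest to that of Anxa7, an annexin, among 6374 other genes with a mean log2 CPM of at least 3. Nearness was the root mean square difference of log2 CPM after centring each gene on its mean. It was 0.11 for Anxa7, 0.12 for Fitm2, a lipid droplet protein, 0.12 for Heatr1, a ribosome biogenesis factor, 0.14 for Msantd4 and 0.14 for Stim2, a calcium sensor of the endoplasmic reticulum, beside a median of 0.40 over the 6374. The fold changes of these 5 genes ran from -0.41 ± 0.15 for Heatr1 to -0.23 ± 0.14 for Stim2 (SE), and 0 of the 5 passed edgeR over all genes (adjusted p from 0.171 to 0.452). The 5 were picked by their profile over the same 12 libraries, so fold changes below 0 follow from the choice.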
